A study of Malus domestica with 12 samples.

Results

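The miR164 microRNA of apple (Malus domestica) and the small RNA that lies across from it in the same hairpin were followed in dormant floral buds. The pair consisted of mdm-miR164c, from the left (5p) arm, and t08515395_x8579, an unnamed small RNA from the right (3p) arm of a chromosome 12 hairpin. These were 2 of the 370 distinct small RNAs in the deposited tables. Both had been selected on their counts, as small RNAs that changed among the stages of dormancy, so their stage values are a description and carry no test here. The buds were apical floral buds of the cultivar "Golden Delicious", and each library held the small RNAs of several buds pooled from several trees. They were sampled at 4 stages with 3 libraries each, namely Stage 1 (early endodormancy, libraries A to C, 665 chilling hours), Stage 2 (late endodormancy, D to F, 1098 h), Stage 3 (early ecodormancy, G to I, 1280 h) and Stage 4 (late ecodormancy, J to L, 1395 h). Endodormant buds do not resume growth when brought into warmth, whereas ecodormant buds do and are held back by the cold outside. The trees were untreated and shared 1 cultivar, and each stage was sampled on a single date, so stage and date cannot be told apart. Small RNAs were isolated by their association with Argonaute proteins and sequenced, and the values are read counts of each mature sequence.

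miR164 is one of the conserved microRNA families of flowering plants. A microRNA is cut from a hairpin as a duplex of both arms, after which Argonaute usually keeps a single strand, the guide, while the other strand, the opposite arm or star strand, is lost. In Arabidopsis, miR164 guides the cleavage of mRNAs of NAC transcription factors such as CUC1, CUC2 and NAC1, which act in organ boundaries, axillary meristems and lateral roots.

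The sequences of both arms are shown first because each later result compares them. Each is written 5′ to 3′ as DNA letters, with the seed (bases 2 to 8) in capitals.
mdm-miR164c: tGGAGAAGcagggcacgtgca
t08515395_x8579: cACTTGCTccccttctccaac
Both were 21 bases long. The table used the same mature sequence for the apple entries mdm-miR164b to mdm-miR164f, so a read of mdm-miR164c cannot be assigned to a single one of these genes. The seed of mdm-miR164c was shared by 3 of the 369 other small RNAs, all named miR164 and holding 4 reads together. No other small RNA of the tables had the seed of t08515395_x8579.

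The mdm-miR164c sequence stood in 5 hairpins of the de novo table, which covered 199 loci. In 4 of them it was listed as the mature strand, and at the fifth, on the plus strand of chromosome 12 at 29101808 to 29101937 of the GDDH13 genome, the table listed t08515395_x8579 as mature and mdm-miR164c as its star. The exact t08515395_x8579 sequence occurred in that hairpin alone among the 5. The 86 bases from the first base of the left arm to the last base of the right arm, at 29101832 to 29101917, are given with the 2 arms in capitals.
Chromosome 12 hairpin, plus strand: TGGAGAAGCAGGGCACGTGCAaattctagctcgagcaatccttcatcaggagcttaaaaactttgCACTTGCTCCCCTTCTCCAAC
In the predicted fold of the whole precursor, 16 bases of mdm-miR164c were paired with bases of t08515395_x8579, and each arm overhung the other by 2 bases at its 3′ end, the form that Dicer-like cuts leave. The arms were separated by 44 bases. The same overhangs were found in the other 4 hairpins, in which 16 or 17 bases of the arms were paired with each other. Whether any of these loci lies in an annotated gene was not analysed here.

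The right arms of the 5 hairpins were not alike, although the left arms were identical. They are compared below with t08515395_x8579, and capitals mark the bases that differ from it.
Chromosome 12, 29101808 to 29101937, plus strand: cacttgctccccttctccaac
Chromosome 4, 28630329 to 28630454, plus strand: cacGtgctccccttctccaac
Chromosome 3, 36755624 to 36755722, minus strand: cacGtgctccccCtctccaac
Chromosome 4, 25961690 to 25961868, plus strand: caTGtgcCccTcttcCccaTc
Chromosome 12, 26280115 to 26280287, plus strand: caTGtgcCccTcttcCccaTc
The chromosome 4 hairpin at 28630329 differed from t08515395_x8579 by a single base in its right arm, and the chromosome 3 hairpin differed by 2 bases. The remaining pair of hairpins had the same right arm as each other, with 6 of the 21 bases differing from t08515395_x8579. Whether the authors' mapping allowed mismatches, which would join reads of such close arms, was not stated. Among the 4 other small RNAs named miR164, which held 5 reads in all libraries together, aly-miR164a-3p was a right-arm sequence that differed from t08515395_x8579 at 2 bases. It was read once, in library I, and stood in none of the 5 hairpins. The other 3 were left-arm sequences with the seed of mdm-miR164c, namely aly-miR164c-5p and cca-miR164 with 1 read each and gma-miR164b with 2.

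The NAC genes that the study listed as predicted targets of mdm-miR164c are shown because they carry the known function of the family. Each site is the mRNA stretch that faces the microRNA, 5′ to 3′, and capitals mark bases that do not form a Watson-Crick pair with mdm-miR164c.
NAC100, MD14G1203000 and MD06G1196100: AUUacgugcccugcuucucca
CUC2, MD11G1253500: AgcacgugUccugUuucucca
NAC1, MD10G1198400: AgcaAgugcccugcuucucca
NAC100, MD17G1051600: CUcacgugUccugcuuUucUG
NAC100, MD09G1053700: CUcacgugUcGugcuucuccG
The names are those of the most similar Arabidopsis genes in the study's annotation. The NAC1 site had 19 Watson-Crick pairs of 21, the CUC2 site and the site shared by MD14G1203000 and MD06G1196100 had 18, and those of MD09G1053700 and MD17G1051600 had 16 and 15. All 7 seed bases were paired in the NAC1 site, in the site shared by MD14G1203000 and MD06G1196100 and in that of MD09G1053700, whereas 6 were paired in CUC2 and 5 in MD17G1051600. The study also listed predicted targets of mdm-miR164c outside the NAC genes, with 14 to 18 Watson-Crick pairs. It listed others for t08515395_x8579, with 15 to 19 pairs. These sites are not shown, so the NAC sites are a selection from the predictions. The position of the NAC sites in the transcripts and the levels of these mRNAs were not analysed here.

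Both arms were well covered. t08515395_x8579 made up 0.0541% and mdm-miR164c 0.0329% of the mature reads of the 12 libraries, or 0.315% and 0.191% of those outside the miR166 family, and both were read in all libraries. By mean level they ranked 27th and 44th of 370 in that order, and t08515395_x8579 ranked 5th among the 116 small RNAs without a database name. The libraries held 561723 to 2307267 mature reads, of which the miR166 family took 66.2% to 91.4%. At that depth 3 reads, the limit below which a small RNA counts as not detected, corresponded to 1.30 to 5.34 CPM (read counts scaled to a common library size). Levels below are CPM normalised by edgeR's TMM factors. Libraries D and L had the lowest factors, at 0.640 and 0.639, against 0.779 to 1.69 elsewhere, and 89.9% and 91.4% of their reads were miR166. Library D also stood apart in the balance of the arms, so the values it moves most are also given without it.

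Both arms were at their lowest in Stage 4. mdm-miR164c had 454, 658 and 405 CPM in the 3 libraries of Stage 1. It had 144, 394 and 289 CPM in Stage 2. It had 408, 220.3 and 631 CPM in Stage 3 and 92.8, 151 and 140.4 CPM in Stage 4. The Stage 4 libraries lay under every library of Stages 1 and 3, and overlapped with Stage 2 only through library D, the lowest of that stage. The means were 506 ± 134, 276 ± 126, 419.7 ± 205 and 128 ± 30.8 CPM from Stage 1 to Stage 4 (SD, n = 3 each), and the Stage 2 mean was 342 ± 74.0 CPM without library D (n = 2).

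The right-arm small RNA showed its lowest levels at the same stage. t08515395_x8579 had 504, 930.2 and 548 CPM in Stage 1. It had 1321.5, 430.0 and 542 CPM in Stage 2, where library D gave the highest value of all 12 libraries under TMM. It had 587, 396 and 914 CPM in Stage 3 and 157, 188 and 279 CPM in Stage 4. All 3 Stage 4 libraries lay under all 9 libraries of the earlier stages. For both arms, such separations describe small RNAs selected on change among these stages. The share of all small RNAs separated in this way is not given here. The means were 661 ± 234, 765 ± 486, 633 ± 262 and 208 ± 63.4 CPM from Stage 1 to Stage 4 (SD, n = 3 each), and the Stage 2 mean was 486 ± 79.3 CPM without library D (n = 2).

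**Figure D1:**
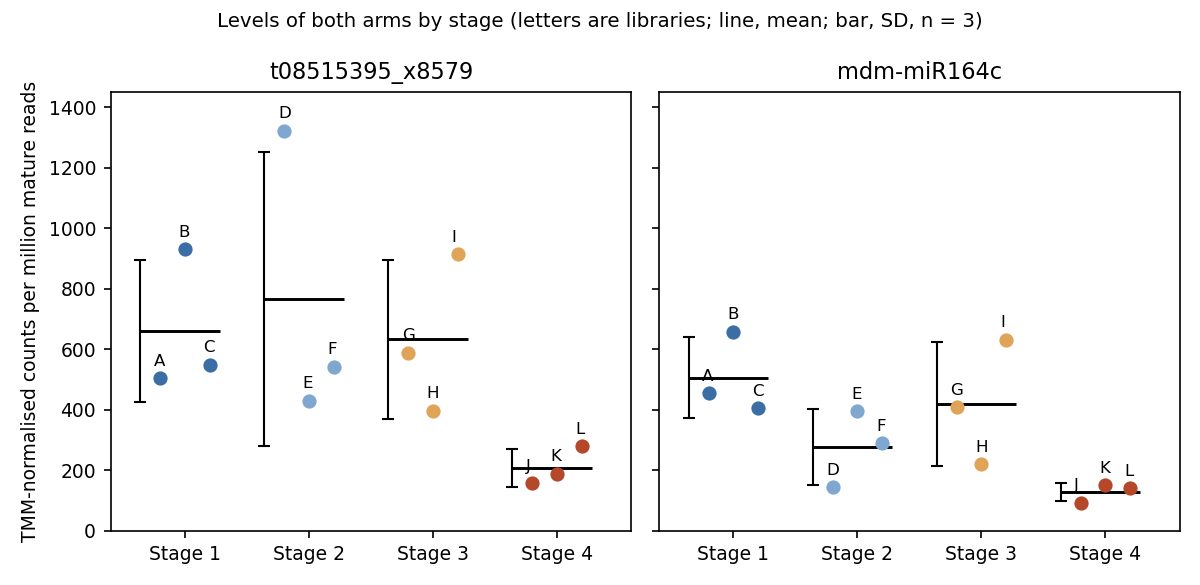
Levels of t08515395_x8579 (left) and mdm-miR164c (right) in TMM-normalised CPM on a linear axis, by stage. Points are libraries with their letters, horizontal lines are the means of 3 libraries and bars the SD. The Stage 4 points lie at 157 to 279 CPM for t08515395_x8579 and at 92.8 to 151 CPM for mdm-miR164c, and library D is the highest point on the left and the lowest Stage 2 point on the right.

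In the fit across 238 small RNAs, mdm-miR164c differed by a log2 fold change of -1.98 ± 0.49 (SE) at Stage 4 against Stage 1. The differences were -1.11 ± 0.48 at Stage 4 against Stage 2 and -1.71 ± 0.49 at Stage 4 against Stage 3. For t08515395_x8579 the same comparisons gave -1.67 ± 0.48, -1.88 ± 0.49 and -1.61 ± 0.48. These comparisons share the Stage 4 libraries. Between the 3 earlier stages the differences were smaller, from -0.88 ± 0.48 (Stage 2 against Stage 1) to 0.61 ± 0.48 (Stage 3 against Stage 2) for mdm-miR164c, and from -0.27 ± 0.47 (Stage 3 against Stage 2) to 0.21 ± 0.47 (Stage 2 against Stage 1) for t08515395_x8579. The Stage 2 libraries of mdm-miR164c lay under those of Stage 1, by 394 against 405 CPM at the nearest. The share of all small RNAs separated between these stages is not given either. In order of mean level, Stages 1, 3 and 2 of mdm-miR164c had neighbours that overlapped, as did Stages 2, 1 and 3 of t08515395_x8579. With Stages 3 and 4 averaged against Stages 1 and 2 on the log scale, the difference was -0.69 ± 0.34 for mdm-miR164c and -0.97 ± 0.33 for t08515395_x8579. Without library D the difference of t08515395_x8579 was -0.45, and scaling by the plain sum of mature reads gave -0.28 for mdm-miR164c and -0.44 for t08515395_x8579. The averaged figure mixed Stage 3, where both arms were near their Stage 1 levels, with Stage 4.

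The share of small RNAs called in the same fit gives the background for the selection. For a change among any of the 4 stages, 26 of the 238 small RNAs (10.9%) had an unadjusted p of 0.05 or less in edgeR's quasi-likelihood test. At Stage 4 against Stage 1, 16 (6.72%) were lower and 9 (3.78%) were higher, and 3 (1.26%) passed an adjusted p of 0.05 in either direction. Since the pair was selected on change among these stages in the same libraries, nothing is read from its place among these calls. The split also depended on the scaling, because scaling by the plain sum of mature reads, without TMM, gave 3 lower and 17 higher. That scaling raised Stage 4 against Stage 1 by 0.47 on the log2 scale in the mean of the library factors.

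Both arms stayed lower at Stage 4 than at each earlier stage under every alternative tried. Because the pair was selected on change among these stages in the same libraries, a kept sign adds no support for the change. Over 21 alternatives each, the Stage 4 against Stage 1 difference ranged from -2.13 to -1.47 for mdm-miR164c and from -1.84 to -1.21 for t08515395_x8579. Without library D, the Stage 4 against Stage 2 difference of t08515395_x8579 was -0.80 in place of -1.88, its Stage 2 against Stage 1 difference was -0.65 in place of 0.21, and its Stage 3 against Stage 2 difference was 0.54 in place of -0.27. With D kept, scaling by the plain sum of mature reads also turned its Stage 3 against Stage 2 difference, to 0.34. Scaling to the mature reads outside the miR166 family gave -0.99 for mdm-miR164c and -0.90 for t08515395_x8579 at Stage 4 against Stage 3, and 0.01 in place of 0.61 for mdm-miR164c at Stage 3 against Stage 2. miR166 took 78.4%, 79.8% and 91.4% of the reads in the Stage 4 libraries, against 72.9%, 79.6% and 66.2% in Stage 3, and 82.0% to 89.9% in Stages 1 and 2.

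**Figure D2:**
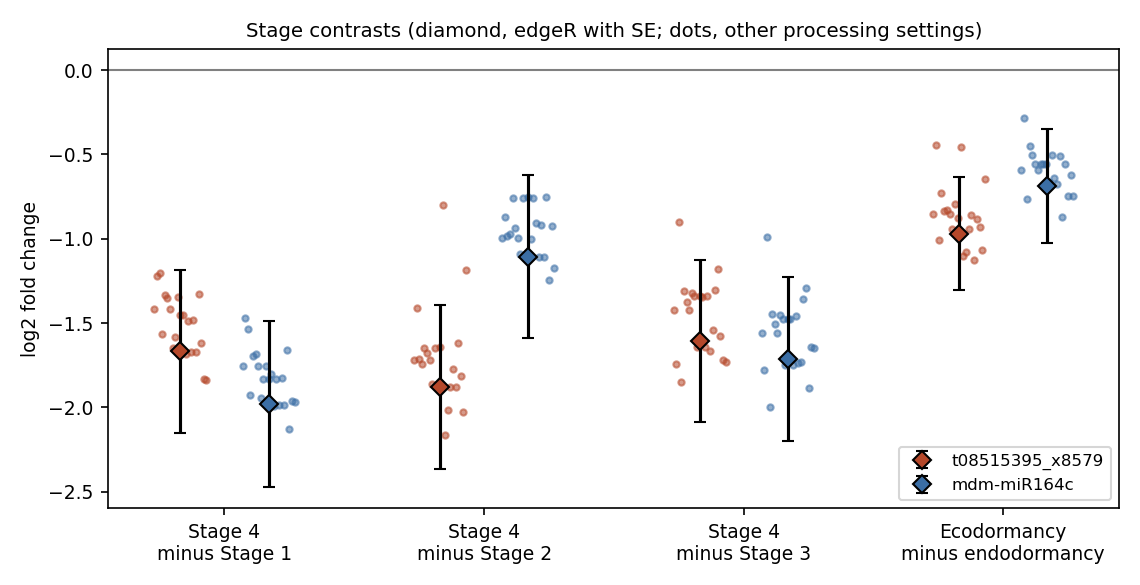
Log2 fold changes of t08515395_x8579 (red) and mdm-miR164c (blue) for Stage 4 against each earlier stage and for ecodormancy against endodormancy. Diamonds are the edgeR values with their SE, and small dots the values under the other processing settings, all of which lie below 0.

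The right arm had more reads than mdm-miR164c in each of the 12 libraries. Of the reads of both arms, t08515395_x8579 took 52.6%, 58.6% and 57.5% in the libraries of Stage 1. It took 90.2%, 52.2% and 65.2% in Stage 2. It took 59.0%, 64.3% and 59.2% in Stage 3 and 62.8%, 55.5% and 66.5% in Stage 4. The reads of both arms numbered 242 to 2438 in a library, and the 95% Wilson interval lay above 50% in 11 libraries, the exception being library E with 49.0% to 55.3%. These intervals cover counting error only.

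Expressed as a ratio, t08515395_x8579 had 1.09 to 1.99 reads for each read of mdm-miR164c in 11 libraries, and 9.19 in library D. The mean log2 ratio was 0.77 ± 0.81 (SD, n = 12 libraries), and the exact sign-flip permutation test, two-sided over all 4096 sign patterns, gave p = 0.000488, the smallest value that 12 libraries allow. Without library D the mean log2 ratio was 0.55 ± 0.29 (SD, n = 11), with an exact permutation p of 0.000977, again the smallest possible. Which arm leads was not used in the selection on stages, but the comparison was chosen with these counts known. Both p-values were thus settled beforehand, and nothing is read from them. The table named t08515395_x8579 the mature strand of the hairpin, and if the naming followed the reads, the direction was set by the same counts. The mdm-miR164c count can come from 5 hairpins, and t08515395_x8579 was found in only a single one of them, so the ratio compares a right arm with the pooled left arms.

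**Figure D3:**
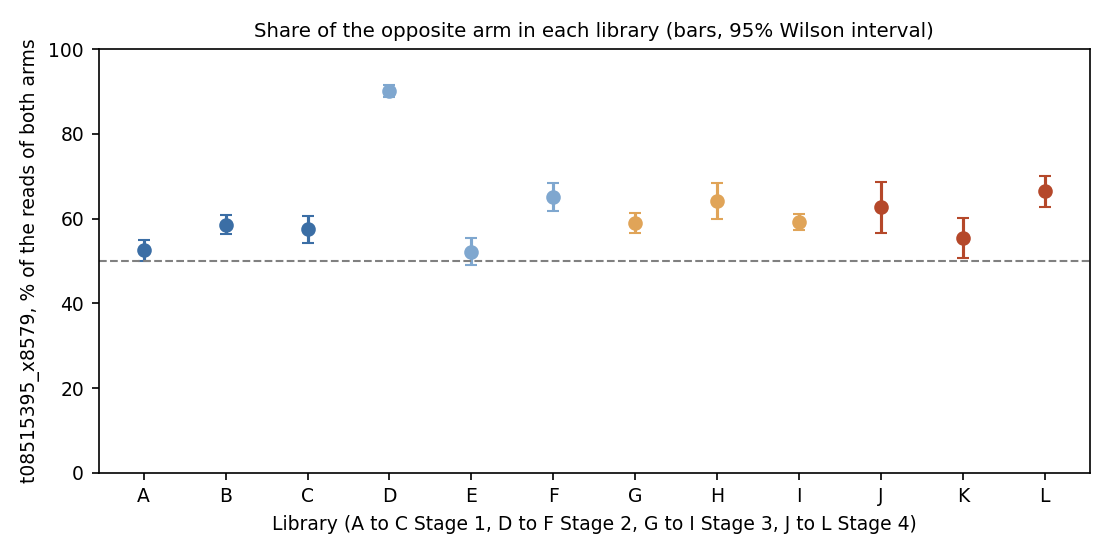
Share of t08515395_x8579 in the reads of both arms (percent, y axis from 0 to 100) in libraries A to L, coloured by stage, with 95% Wilson intervals. The dashed line marks 50%. Library D stands at 90.2%, and the other 11 libraries lie between 52.2% and 66.5%.

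The balance of the arms was also compared among stages, as a description. The mean log2 ratio was 0.36 ± 0.19 in Stage 1, 1.41 ± 1.60 in Stage 2, 0.64 ± 0.18 in Stage 3 and 0.69 ± 0.34 in Stage 4 (SD, n = 3 each), and it was 0.52 ± 0.55 in Stage 2 without library D (n = 2). The 3 libraries of Stage 3 (0.53 to 0.85) lay above those of Stage 1 (0.15 to 0.50), whereas every other pair of stages overlapped. How often other arm pairs separate in this way was not examined, so nothing is read from it. In library D the arms moved apart in opposite directions. There t08515395_x8579 had 1462 reads, its most in any library, and mdm-miR164c had 159 reads, against 459 and 293 in the other Stage 2 libraries. These reads are unscaled, and D held 1727740 mature reads against 985517 in library E and 1138414 in library F. Scaled by the plain sum of mature reads, t08515395_x8579 had 846 CPM in D, under the highest Stage 3 library at 1066 CPM. The sum of both arms in D was 1465 TMM-normalised CPM, against 824 in library E and 831 in library F. Scaled by the plain sum of mature reads, this sum was 938 CPM in D, between 974 in library E and 739.6 in library F. The place of D in the sum thus depended on the scaling.

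Across the 12 libraries the log2 levels of the arms had a Pearson r of 0.61 and a Spearman rho of 0.62, and without library D these were 0.95 and 0.92 (n = 11). Without J and L, the libraries farthest from the median of mdm-miR164c, Pearson r was 0.34 with D kept, and without D and L it was 0.95. Measured as deviations from the stage means, Pearson r was 0.06 over 12 libraries and 0.81 over the 11 without D. Points of a library share its depth and its normalisation factor, and these values are descriptive.

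**Figure D4:**
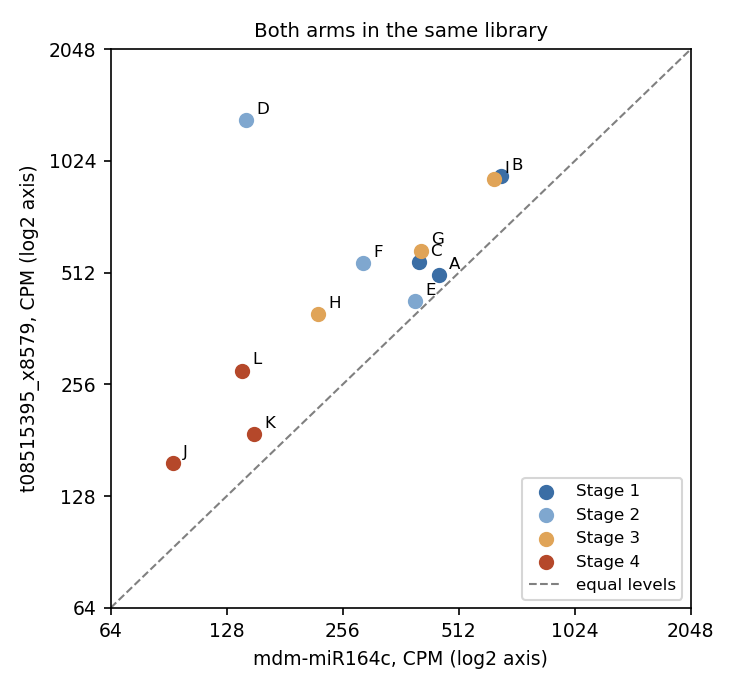
Level of t08515395_x8579 against that of mdm-miR164c in each library (CPM, both axes on a log2 scale), coloured by stage, with the dashed line at equal levels. All 12 points lie above the line, 11 of them close to it, and library D lies far above.

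Other hairpins whose 2 arms were both in the tables show how the balance of arms behaves elsewhere in these libraries. There were 80 such pairs of sequences, and in 19 of them both arms had at least 10 reads in every library, a limit chosen after the data were seen. Of the 18 pairs beside mdm-miR164c, which came from 7 left-arm sequences and include variants of the same arm, the right arm led in all 12 libraries in 8, the left arm led in all in 3, and the leading arm varied in 7. Outside library D, the ratio of t08515395_x8579 to mdm-miR164c strayed from its median by at most 0.46 on the log2 scale. The same figure was larger in each of the 18 other pairs, from 1.00 to 3.05. Library D was the farthest library of the mdm-miR164c pair, so leaving it out favours this pair in that comparison. Over all 12 libraries the log2 ratio of this pair spanned 3.07, and 4 of the 18 other pairs spanned more. In library D the ratio lay 2.67 above its median, which was exceeded in size by a single other pair, aly-miR396a-3p over mdm-miR396b at -2.72. The median size of the deviation of library D was 0.88 over the 18 other pairs. Over all 80 pairs, the deviation of D was largest for mdm-miR167a over bna-miR167d at 6.20, where mdm-miR167a had 7 reads in all. Library I had the same deviation in that pair, and in both libraries its log2 ratio was 0, from equal counts with 0.5 reads added. The deviation of D was 0 in 9 pairs, whose median log2 ratio was 0 as well. Such values come from sparsely read sequences, so nothing is read from them.

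**Figure D5:**
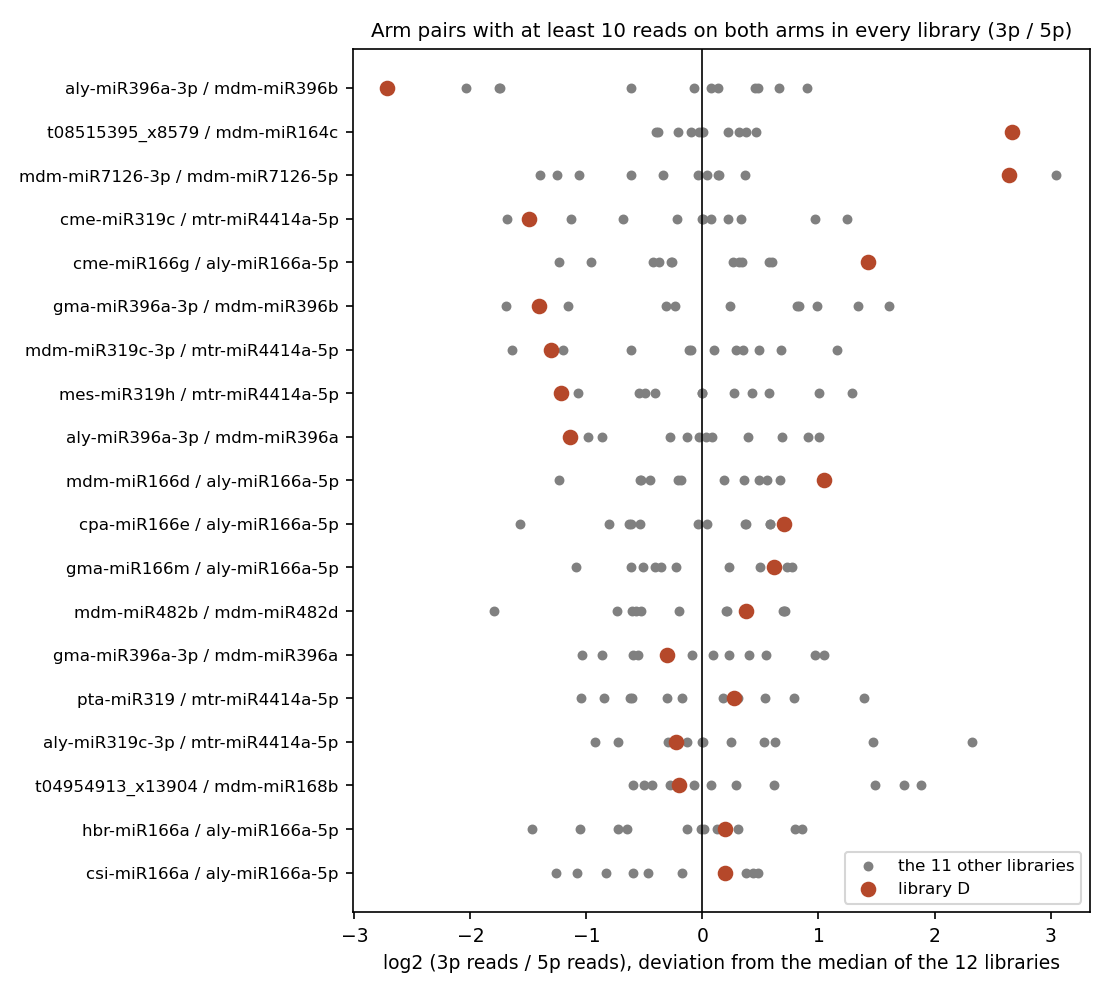
Deviation of the log2 ratio of right-arm to left-arm reads from the median of the 12 libraries, for the 19 arm pairs with at least 10 reads on both arms in every library. Red points are library D and grey points the other 11 libraries. In the t08515395_x8579 / mdm-miR164c pair the grey points lie within 0.46 of the median and library D at 2.67.

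The small RNAs whose pattern was most like that of each arm differed between the arms when library D was included. For mdm-miR164c they were t03063567_x79, from the left arm of miR319 hairpins, with Pearson r of 0.89 and Spearman rho of 0.80, mdm-miR393c with 0.82 and 0.90, and mdm-miR159d with 0.82 and 0.81, over 12 libraries and 237 other small RNAs. t03063567_x79 had a mean level inside the 1.30 to 5.34 CPM of the detection limit. For t08515395_x8579 they were mdm-miR482a-3p with 0.86 and 0.85, aly-miR159b-3p with 0.84 and 0.85, and mdm-miR396a with 0.76 and 0.73. The opposite arm ranked 20th of 237 for mdm-miR164c and 13th for t08515395_x8579. Without library D, each arm was the most similar small RNA to the other among all 237. Library D had been set apart for the balance of these same arms, so this rank follows in part from that choice. The median r over all others was 0.11 for mdm-miR164c and -0.09 for t08515395_x8579 with all 12 libraries. Without library D it was 0.09 and 0.06.

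microRNA families that act with miR164 in meristems and organ boundaries, or in the auxin response that shapes them, were set beside the pair. These were miR319, which targets TCP genes, miR165 and miR166, which target HD-ZIP III genes, miR171, which targets HAM genes, and miR394, whose target is an F-box gene, with miR160, miR167, miR390 and miR393 of the auxin pathway. Together with the other miR164 names they held 93 sequences, of which 46 passed the filter on low counts. None of the 46 passed an adjusted p of 0.05 at Stage 4 against Stage 1 in edgeR's quasi-likelihood test, against 1 in DESeq2. At an unadjusted p of 0.05 or less, 3 were lower (6.52%) and 1 was higher (2.17%). Over all 238 small RNAs the shares were close to these, at 6.72% and 3.78%. DESeq2 gave 2 lower and 2 higher among the 46, and 15 lower and 23 higher over all small RNAs it tested. The median log2 fold change was -0.22 over the 46 and 0.04 over all 238.

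The 4 sequences called at the unadjusted threshold are named because they are few, and they were chosen after their values were seen. mdm-miR393c, of the family that targets auxin receptors, averaged 212 ± 25.6 CPM in Stage 4 and 451 ± 58.5 CPM in Stage 1 (SD, n = 3 each), with a log2 fold change of -1.09 ± 0.44 (edgeR, adjusted p = 0.284). bdi-miR167c-5p, of the family that targets auxin response factors, averaged 55.3 ± 31.1 CPM in Stage 4 and 161 ± 13.7 CPM in Stage 1, with -1.54 ± 0.61 (edgeR, adjusted p = 0.284). mdm-miR171b averaged 1404 ± 648 CPM in Stage 4 and 2694 ± 371 CPM in Stage 1, with -0.94 ± 0.44 (edgeR, adjusted p = 0.411). In the opposite direction, mdm-miR390e, of the family that triggers trans-acting siRNAs against auxin response factors, averaged 479 ± 92.6 CPM in Stage 4 and 168 ± 13.1 CPM in Stage 1, with 1.51 ± 0.49 (edgeR, adjusted p = 0.163). The study listed mdm-miR171b and mdm-miR390e among the miRNAs that both edgeR and DESeq2 called as changed among the stages.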

How the data were processed

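Small RNAs of dormant apple buds were purified with the TraPR kit and sequenced. The authors processed the reads with CASAVA and Bowtie 0.12.9 and predicted loci with Mir-Island on the GDDH13 genome. Trimming, mismatches and the treatment of reads with several loci were not given in the sources used here. The deposited values are raw read counts of mature sequences per library, in a table of known miRNAs (254 lines) and a de novo table (199 lines). A sequence listed at several loci carried the same count at each and was used once, which gave 370 sequences. Per-library values in 48 columns (star counts and others) were not used. Columns were matched to the libraries and stages through the study's library letters.

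Counts were fitted with edgeR 4.0.16 in R 4.3.3 (filterByExpr, count of 10 and total of 15 as minimums, TMM, quasi-likelihood, 4 stage means over all 12 libraries, Benjamini-Hochberg adjustment over 238 sequences). The script was tested on simulated data. DESeq2 1.42.0 and other scalings, filters and sets of libraries were alternatives. Log levels used a pseudocount of 0.5 CPM, and ratios of other arm pairs 0.5 reads. Hairpins were folded with RNAfold 2.7.2. Exact permutation tests were run in SciPy. No 2 libraries of a stage held identical values, and in every such pair their counts differed by more than sampling noise. Each library is a biological replicate per the labels' numbering, and p-values measure the spread between these libraries.

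The members and the gene families were chosen with earlier results of these data known. Named were both arms, the other miR164 sequences, the 3 small RNAs most like each arm by Pearson r, family sequences past the adjusted threshold (none in edgeR, so that the 4 past the unadjusted one were named after their values were seen), the arm pairs with the largest and smallest deviation of library D, and the NAC target sites.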

Additional observations from a re-analysis of the deposited data

Results flagged for a closer look

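Among the 6 endodormancy libraries, the log2 ratio of t08515395_x8579 to mdm-miR164c reads was 3.20 in library D, and the next highest was 0.91 in library F, a gap that spanned 0.746 of the whole range. This was the only such value in the 6 groups examined, which were the levels of both arms and their ratio, each in the 6 endodormancy and the 6 ecodormancy libraries. About 1 such group in 20 is marked in this way by chance if its values share a single distribution. Each group here mixes stages, and the ratio is derived from the levels of both arms, so that rate is approximate. Library D also had 89.9% of its mature reads from miR166 and a TMM factor of 0.640, and the part of these in the ratio was not tested.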

How the results depend on the processing

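For both arms, every Stage 4 difference kept its sign under all alternatives, which adds no support because the pair was selected on change among the stages. Under scaling to mature reads outside miR166, Stage 4 against Stage 3 moved to -0.99 for mdm-miR164c and -0.90 for t08515395_x8579. Without libraries D and L, Stage 4 against Stage 2 of t08515395_x8579 was -1.19. Leaving out single libraries gave, for mdm-miR164c, -2.13 to -1.66 (Stage 4 against Stage 1), -1.25 to -0.75 (against Stage 2) and -1.89 to -1.29 (against Stage 3), and for t08515395_x8579 -1.83 to -1.33, -2.17 to -0.80 (-0.80 without D) and -1.72 to -1.18. The number of small RNAs higher at Stage 4 against Stage 1 was 9 and became 17 with total mature reads, 16 without miR166, 18 with no filter, 23 in DESeq2, 27 without D and L, and 7 to 19 with single libraries left out (18 without D, 19 without L). The number lower was 16 and became 3, 6 and 9 under the first 3 of these settings, 8 with at least 10 reads in every library, and 5 to 16 with single libraries left out (5 without C, 7 without B, 9 without A or J). The causes were not tested. The mean log2 arm ratio was 0.55 to 0.83 with single libraries left out. Since all 12 ratios were above 0, leaving out libraries could not change its direction or its place past the threshold. The correlation of the arms without single libraries, added after the data were seen, was 0.45 to 0.95. No paired analysis was possible because the columns carry no replicate numbers. Depth limited the other miR164 names, with 5 reads in all.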
